A study of Mus musculus with 50 samples.

Results

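The genes described here encode the nuclear-encoded subunits of the mitochondrial oxidative phosphorylation complexes, measured by mRNA sequencing in mouse splenic CD8+ T cells during the first day of activation. They were chosen by name: every row of the count table whose Ensembl identifier maps to a protein-coding symbol of the Nduf subunit, Sdh, Uqcr, Cox4 to Cox8 or Atp5 families. That gave 84 of 21647 genes, with 37 genes of complex I, 4 of complex II, 8 of complex III, 18 of complex IV and 17 of complex V. The complex was assigned by symbol alone, so a gene such as Ndufa4 counts under complex I whatever complex its protein joins. The cells came from wild-type mice (WT) and from knockout mice (KO), 5 mice of each genotype, all 10 weeks old and on a background labelled C567BL/6J. Each mouse gave 5 libraries, of cells not activated (0 h) and of cells kept for 2, 6, 12 or 24 h on plates coated with anti-CD3e, with anti-CD28 added to the medium, each at 2 ug/ml, which makes 10 groups of 5 and 50 libraries. CD8+ cells were pulled from spleen with anti-CD8a beads, a step that also keeps other cells that carry CD8a.

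Oxidative phosphorylation is the process by which mitochondria turn the energy of nutrients into ATP. Complexes I and II pass electrons from NADH and succinate to ubiquinone, complex III passes them to cytochrome c, complex IV passes them to oxygen, and complex V, the ATP synthase, uses the proton gradient that complexes I, III and IV build. Most subunits are encoded in the nucleus and some in mitochondrial DNA, and T cells that leave rest for growth are known to enlarge their mitochondria and raise both glycolysis and respiration.

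Library totals ran from 9571625 to 31293872 counts. The 0 h library of WT mouse 3 stood apart: its 50 most abundant genes held 23.8% of its counts. A ribosomal list was made of symbols with Rpl or Rps and a digit. Most are cytosolic ribosomal protein genes, but some kinase genes such as Rps6ka5 are among them. CPM are counts relative to the scaled size of the library. In this library the list summed to 146864 CPM, against 21634 to 28499 CPM in the other WT libraries at 0 h. This library was also 1 of the 3 libraries with the lowest totals, with the 2 h library of the same mouse and the 0 h library of KO mouse 3. The libraries of WT mice 1 and 4 stood apart in another way, in marker genes at 0 h. Their 8 immature thymocyte markers summed to 1559 to 2002 CPM, a range above the 233 to 439 CPM of WT mice 2, 3 and 5 and the 271 to 434 CPM of the KO mice. Their 6 mitosis markers summed to 3466 to 4297 CPM, where WT mice 2, 3 and 5 had 65.8 to 134 CPM and the KO mice 199 to 773 CPM. Their 7 CD8 T cell markers, each with counts in all 50 libraries, summed to 2211 to 2769 CPM, below the 5987 to 16739 CPM of WT mice 2, 3 and 5 and the 4527 to 6950 CPM of the KO mice. The part of these cells in the results was not tested, and in bulk RNA fewer cells of a type and less RNA per cell cannot be told apart. Results are therefore given from all 50 libraries and again from 37, without the 10 libraries of WT mice 1 and 4 and without the 3 libraries of lowest total, a choice made after seeing the data that leaves 2 WT libraries at 0 h and at 2 h.

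Every complex was expressed in all 10 groups. Per kilobase of exon, the most abundant subunits were the catalytic core of the ATP synthase, Atp5b (β subunit) at 407 CPM per kb and Atp5a1 (α subunit) at 379 CPM per kb, averaged over 50 libraries. Next came small subunits of cytochrome c oxidase, Cox6b1 at 274, Cox8a at 258 and Cox6a1 at 223 CPM per kb. Levels per kb depend on the annotated exon length, which was 708, 619 and 702 bases for these genes in that order. Some members had longer annotated exons, such as Cox6c (3567 bases), Atp5g1 (4912), Ndufb2 (5628) and Atp5l (6443), and some shorter, such as Ndufa1 (419). How far the ranking follows this length was not tested. At the low end stood isoforms known from other tissues: Cox6a2 and Cox7a1, the muscle forms of their subunits, at 1.20 and 1.42 CPM per kb, Cox4i2, the lung form of subunit 4, at 0.444, and Cox6b2, the testis form of subunit 6b, at 5.00 CPM per kb. Cox7b2 and Cox8c had no count in any library, Cox8b had 12 counts in all and Ndufa4l2 87, so these 4 were left out of the tests and 80 members were tested among 13294 genes. Some low levels are uncertain for another reason: 84.8% of the 50-base stretches of Atp5l transcripts, 38.3% of those of Atp5g2 and 23.0% of those of Cox7c also occur in a transcript of another gene model, so that reads can be split between the copies.

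The summed level of the 84 genes was lowest at 2 h (7075 ± 732 CPM, mean ± SD, n = 5) and highest at 24 h (13568 ± 246 CPM) in KO cells. At 0 h it was 7481, 7818, 11269.9, 8817 and 8688 CPM in KO mice 1 to 5, and at 2 h it was 7534, 7243, 6994, 5868 and 7738 CPM. It then stood at 9072, 9681, 10147, 9899 and 9857 CPM at 6 h, 13136, 12350.0, 12739, 12942 and 11563 CPM at 12 h and 13434, 13949.8, 13501, 13308 and 13647 CPM at 24 h. The 5 KO mice at 24 h lay above every KO library at 0, 2 and 6 h, and above every KO library at 12 h as well. In WT mice 1 to 5 the sums at 0 h were 12839, 6647, 29077, 11514 and 7123 CPM. WT mice 2 and 5 started lowest and went to 10635 and 10892 CPM at 6 h, 15483 and 17241 CPM at 12 h and 13369 and 13928 CPM at 24 h, whereas WT mice 1 and 4 stayed between 10964 and 13933 CPM at all 5 times. The mice also drew closer to each other with time: the median coefficient of variation of the 80 tested members between the 5 KO mice was 21.3% at 0 h and 3.87% at 24 h, beside 22.0% and 6.70% over all genes tested.

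**Figure D1:**
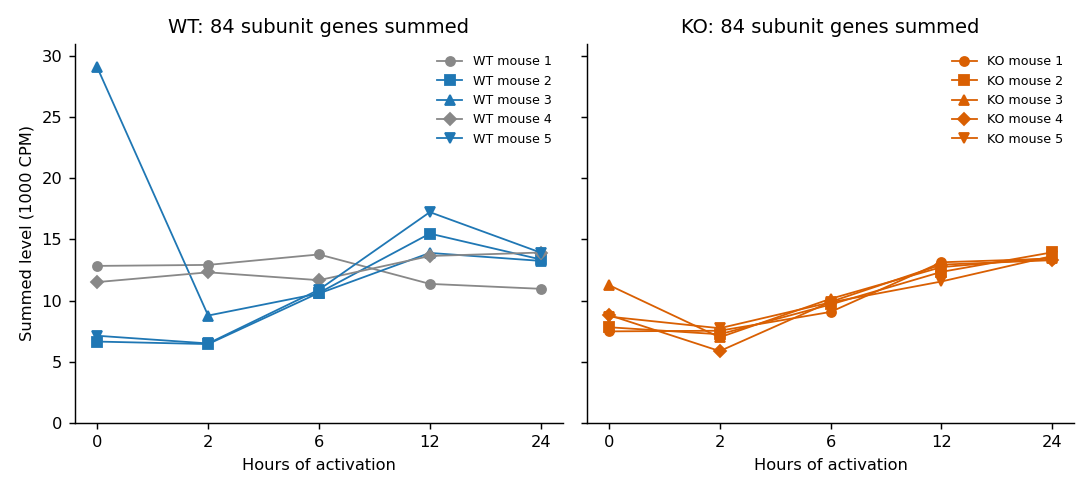
Summed level of the 84 subunit genes (units of 1000 CPM, vertical axis) against hours of activation in WT mice (left) and KO mice (right), 1 line per mouse. WT mice 1 and 4 are drawn in grey. WT mouse 3 stands at 29077 CPM at 0 h, WT mice 1 and 4 stay between 10964 and 13933 CPM, and the 5 KO mice end between 13308 and 13950 CPM at 24 h.

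In KO cells complex I and complex II held most of the members called at 2 h, nearly all of them lower. At 2 h, 14 of 80 members had fallen and 2 had risen against 0 h at an adjusted p under 0.05 (edgeR's quasi-likelihood test, Benjamini-Hochberg over 13294 genes), beside 19.6% and 20.3% of all genes. The share that fell was thus near that of all genes, and few members rose. The median log2 fold change was -0.37 over the members and -0.08 over all genes. Over all genes it was -0.27 in the shortest quartile of exon length, which holds 61 of the 80 members, and 0.13 in the longest, and the part of transcript length in the fall was not tested. Complex I held 10 of the 14, among them the core subunits Ndufs3 and Ndufs7 and the accessory subunits Ndufb3 and Ndufa10. Ndufb3 had 26.2, 24.1, 40.4, 26.2 and 30.3 CPM at 0 h and 14.9, 13.3, 12.7, 9.32 and 16.3 CPM at 2 h in mice 1 to 5. Every 2 h value lay below every 0 h value, a log2 change of -1.14 ± 0.26 (SE, adjusted p = 0.00042). In complex II, Sdha, the flavoprotein that oxidises succinate, went from 281, 320.0, 305, 342 and 314 CPM to 207, 209, 203, 197 and 196 CPM. That is -0.63 ± 0.12 (SE, adjusted p = 2.7e-05) on the log2 scale, without overlap between the times. Sdhc, a membrane anchor of the same complex, changed by -0.96 ± 0.19 (SE, adjusted p = 5.5e-05). The 2 members that rose, Atp5l and Atp5g2, encode subunits of the ATP synthase and are among those whose transcripts share sequence with other genes. In the fit of 37 libraries, 44 members had fallen and 4 had risen at 2 h, beside 36.6% and 30.6% of all genes.

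By 24 h most of the called members were higher than at 0 h in KO cells. The 6 h cells gave 6 members up and 8 down, 12 h gave 23 up and 4 down, and 24 h gave 31 up and 5 down. Over all genes 26.8% rose and 22.4% fell at 6 h, 27.8% and 25% at 12 h, and 30.7% and 28% at 24 h. At 24 h the share of members called higher thus stood above the share over all genes, and the share called lower well below it, with a median log2 change of 0.47 against 0.02. Marker lists named for other cells moved over the same interval in KO mice, and not all in 1 direction. The summed B cell markers lay at 74.5 to 335 CPM at 0 h and at 13.9 to 24.4 CPM at 24 h, and the NK cell markers at 110.5 to 240.5 CPM and 16.8 to 22.5 CPM. Nearly all counts of the NK list were of Klrd1 (98439 over the 50 libraries, beside 1906 for Klrb1c and 646 for Ncr1). That sum thus follows 1 gene, and whether it came from NK cells or from CD8 T cells was not tested. Neutrophil markers lay at 70.7 to 153 CPM and 0.0420 to 0.522 CPM, and erythroid markers at 17.6 to 78.5 CPM and 0.391 to 0.676 CPM. The CD8 T cell markers lay at 4527 to 6950.0 CPM and 2077 to 2381 CPM and the mitosis markers at 199 to 773 CPM and 2474 to 2772 CPM, and the part of these shifts in the rise of the members was not tested. With mouse as a replicate block 33 members rose and 7 fell at 24 h, beside 34.7% and 31.5% of all genes. In the fit of 37 libraries the counts at 24 h were 60 up and 11 down, beside 40.5% and 39% of all genes. By complex, 10 of 36 rose and 1 fell in complex I, 4 of 4 rose in complex II, 5 of 8 rose in complex III, 5 of 15 rose and 4 fell in complex IV, and 7 of 17 rose in complex V. The medians were 0.39, 0.72, 0.88, 0.34 and 0.61 in that order. With library totals in place of the trimmed mean scaling, the median of all genes in KO cells moved to between -0.25 and -0.14 over the 4 times. The member median at 24 h was then 0.30, with 20 members up and 10 down, beside 25.5% and 32.4% of all genes. The share of members up was thus near that of all genes, and the share down was below it. Complexes I, II, III and V had more members up than down (5 and 3, 2 and 0, 4 and 1, 7 and 2), whereas complex IV then had 2 up and 4 down. In complexes I and IV the share up was below the 25.5% over all genes, and in complexes II, III and V above it.

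**Figure D2:**
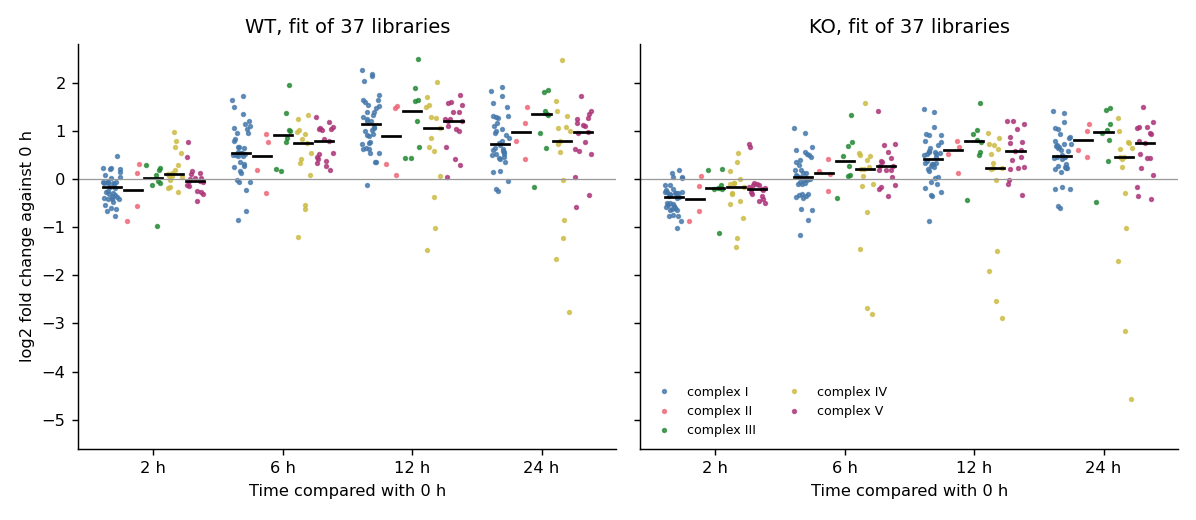
Log2 fold change against 0 h (vertical axis) of each tested member at 2, 6, 12 and 24 h, in WT (left) and KO (right), from the fit of 37 libraries. Points are genes coloured by complex and black bars are medians of the complex. In KO the complex medians are below 0 at 2 h and between 0.45 and 0.98 at 24 h, and the points far below 0 belong to complex IV.

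In complex V, 3 of 17 members had risen by 6 h in KO cells, fewer than the 26.8% over all genes, and 7 of 17 by 24 h. Atp5b had 846, 959, 1190.3, 1142 and 1179 CPM in KO mice 1 to 5 at 0 h, 856, 1004, 890.1, 765 and 1074 CPM at 2 h, 1644, 1776, 1791, 1827 and 1681 CPM at 6 h, 2435, 2241, 2345, 2341 and 2189.7 CPM at 12 h and 2349, 2344, 2316, 2296 and 2397 CPM at 24 h. The 0 h and 2 h values overlapped, the 6 h values lay above both, and the 12 h and 24 h values lay above those at 6 h. The log2 change was 0.71 ± 0.22 (SE, adjusted p = 0.0067) at 6 h and 1.14 ± 0.22 (SE, adjusted p = 3.5e-05) at 24 h. Its partner Atp5a1 changed by 1.07 ± 0.18 (SE, adjusted p = 3.3e-06) at 24 h. Atp5g3, a gene for the c subunit of the proton-driven ring, went from 145, 161, 227, 205 and 224 CPM at 0 h to 523, 530.2, 506, 504 and 518 CPM at 24 h. Its log2 change of 1.42 ± 0.22 (SE, adjusted p = 7.1e-07) was the highest among the 80 tested members in KO cells at 24 h. Atp5g2, another c subunit gene, changed by 1.37 ± 0.38 (SE, adjusted p = 0.0024) at 24 h from much lower levels, 1.27, 1.37, 0, 1.90 and 0.921 CPM at 0 h.

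In complex II all 4 subunits rose by 24 h in KO cells, and with library totals as the scaling 2 of 4 passed the threshold, Sdhb and Sdhd. Sdhd, the small membrane anchor, had 99.8, 102, 117, 119.6 and 139.9 CPM at 0 h, 194, 183, 181, 188 and 179 CPM at 12 h and 256, 257, 249.7, 246 and 267 CPM at 24 h, and none of these groups overlapped. Its log2 change at 24 h was 1.14 ± 0.22 (SE, adjusted p = 3.3e-05). Sdhb, the iron-sulfur subunit, changed by 0.96 ± 0.20 (SE, adjusted p = 0.00011), Sdhc by 0.48 ± 0.18 (SE, adjusted p = 0.022) and Sdha by 0.45 ± 0.11 (SE, adjusted p = 0.00087). Sdha and Sdhc thus fell at 2 h before they rose, whereas Sdhb and Sdhd had log2 changes of -0.17 ± 0.20 and 0.09 ± 0.22 (SE) at 2 h, neither past the threshold.

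In complex III the small subunit Uqcrq moved early. Its KO levels were 58.3, 59.9, 83.0, 68.8 and 64.7 CPM at 0 h, 61.1, 53.8, 54.2, 43.9 and 64.5 CPM at 2 h and 135, 166, 209, 153 and 149 CPM at 6 h. The 6 h libraries all lay above both earlier times, and the log2 change was 1.28 ± 0.35 (SE, adjusted p = 0.0025) at 6 h and 1.38 ± 0.35 (SE, adjusted p = 0.00093) at 24 h. Uqcrfs1, the Rieske iron-sulfur protein, rose by 0.99 ± 0.17 (SE, adjusted p = 3.3e-06), Uqcr10 by 1.27 ± 0.34 (SE, adjusted p = 0.0013) and the core protein gene Uqcrc1 by 0.89 ± 0.19 (SE, adjusted p = 0.00014). Uqcrh, the hinge protein that helps cytochrome c bind, did not follow: its change was -0.70 ± 0.33 (SE, adjusted p = 0.064) from all libraries and -0.48 ± 0.10 (SE, adjusted p = 0.00013) from 37, where it had fallen.

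In complex I, members of both the membrane arm and the matrix arm rose by 24 h. The share of complex I members that rose in KO cells, given above, was slightly below the 30.7% over all genes. The share that fell was well below the 28% over all genes. Among accessory subunits, Ndufb6 went from 27.9, 27.0, 44.0, 33.0 and 37.7 CPM at 0 h to 81.5, 86.8, 83.3, 81.9 and 84.4 CPM at 24 h without overlap, 1.30 ± 0.25 (SE, adjusted p = 3e-05) on the log2 scale. Ndufa12 changed by 1.15 ± 0.36 (SE, adjusted p = 0.0061) and Ndufc2 by 1.09 ± 0.34 (SE, adjusted p = 0.0061). Of the core subunits of the matrix arm, which carry the flavin and the iron-sulfur clusters, Ndufs1, Ndufs3, Ndufs8, Ndufv1 and Ndufv2 rose by smaller amounts, from 0.36 for Ndufs3 to 0.64 for Ndufs8. Ndufa6 fell, -0.82 ± 0.24 (SE, adjusted p = 0.0038). Its KO levels at 24 h, 58.9, 64.6, 62.6, 60.2 and 58.4 CPM, lay below all 5 at 0 h, 95.8, 99.8, 167, 94.0 and 79.8 CPM. Without KO mouse 3, whose 0 h value was the highest, the change was -0.59 and was not called.

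Complex IV held members that rose and members that fell in KO cells at 24 h, at shares near the 30.7% and 28% over all genes. The subunits Cox5a and Cox5b rose, Cox5a by 1.10 ± 0.26 (SE, adjusted p = 0.0005) and Cox5b by 0.74 ± 0.20 (SE, adjusted p = 0.0019), and so did Cox7a2, Cox7b and Cox8a. Cox7a2l, a relative of subunit 7a known for joining complex IV to complex III in supercomplexes, went the other way. It had 158, 204, 303, 184 and 129 CPM at 0 h and 212, 219, 206, 158 and 163 CPM at 2 h, then 65.0, 50.7, 59.7, 56.9 and 83.8 CPM at 6 h and 50.1, 54.8, 46.9, 49.8 and 55.8 CPM at 24 h in KO mice 1 to 5. All KO libraries from 6 h on lay below all KO libraries at 0 and 2 h, and the log2 change was -1.63 ± 0.37 (SE, adjusted p = 0.00033) at 6 h and -1.93 ± 0.37 (SE, adjusted p = 3.2e-05) at 24 h. In WT cells the change at 24 h was -2.18 ± 0.38 (SE, adjusted p = 1.3e-05) from all libraries and -1.66 ± 0.17 (SE, adjusted p = 1.5e-10) from 37. Cox7a2l passed the threshold in the same direction at 6, 12 and 24 h in both genotypes and in both fits, that of all libraries and that of 37. From only the groups compared it was not called in WT at 6 h or at 12 h. Its 0 h level was 853.5 CPM in WT mouse 3 and 87.6 to 177 CPM in the other WT mice. Cox6b2 and Cox6a2, isoforms known from testis and muscle, fell as well. Cox6b2 had 4.63, 5.35, 12.9, 7.38 and 9.98 CPM at 0 h and 0.913, 0.593, 0.706, 0.739 and 0.869 CPM at 24 h, a log2 change of -3.39 ± 0.85 (SE, adjusted p = 0.00077). Cox6a2 changed by -4.41 ± 1.10 (SE, adjusted p = 0.00078), but KO mouse 1 alone was high at 0 h: the 5 values were 10.4, 0.125, 1.52, 0.282 and 0.307 CPM. Without that mouse its change was -2.37, and was still called. Ndufv3, an accessory subunit of complex I, fell in the middle of the course, -1.27 ± 0.31 (SE, adjusted p = 0.00073) at 6 h and -0.98 ± 0.31 (SE, adjusted p = 0.0066) at 12 h.

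**Figure D3:**
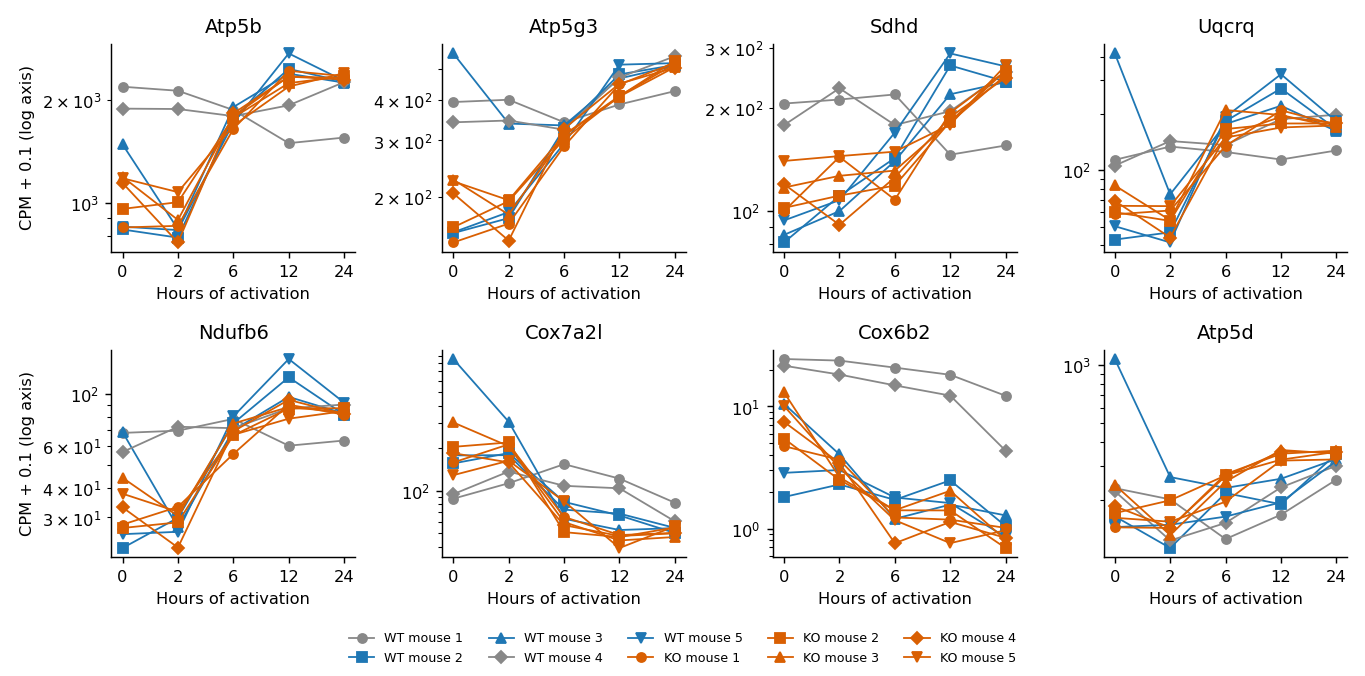
CPM + 0.1 (log axis) of 8 members against hours of activation, 1 line per mouse, with WT in blue, WT mice 1 and 4 in grey and KO in orange. Atp5b, Atp5g3, Sdhd, Uqcrq and Ndufb6 end higher than they start in KO mice, Cox7a2l and Cox6b2 end lower, and at 12 h Atp5d is higher in all 5 KO mice than in all 5 WT mice.

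Promoter sequences are shown as examples, for 4 members that hold a motif of a known respiratory gene regulator and for Cox7a2l, a member without one. RefSeq promoter windows (250 bases before to 50 after the start, GRCm38.p6) were matched for 66 of the 84 members. Each window was searched on both strands for a letter string of 3 factors long associated with respiratory genes: GCGCA and GCGC with any base between them for NRF1, CCGGAAG for the ETS family, to which GABP belongs, and AAGATGGC for YY1. The NRF1 string was in 26.6% of 64 tested members with a window and in 11.2% of 10273 tested genes, the ETS string in 25.0% and 19.7%, and the YY1 string in 14.1% and 5.13%. At least 1 of the 3 was in 56.25% of these members and 31.6% of these genes. A match is a description of letters and not a binding site. The 120 bases before the start are printed 5′ to 3′ on the gene's own strand, with matches in capitals. All 5 genes lie on the minus strand, Sdha at chr13:74350241-74350360, Sdhd at chr9:50603850-50603969, Atp5k at chr5:108434400-108434519, Uqcr11 at chr10:80406822-80406941 and Cox7a2l at chr17:83514334-83514453.
Sdha: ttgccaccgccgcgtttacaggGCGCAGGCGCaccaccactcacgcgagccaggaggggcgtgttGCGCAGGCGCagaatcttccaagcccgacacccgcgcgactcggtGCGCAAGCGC
Sdhd: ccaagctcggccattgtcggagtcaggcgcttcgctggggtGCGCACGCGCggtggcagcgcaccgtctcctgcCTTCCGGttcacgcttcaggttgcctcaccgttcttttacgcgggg
Atp5k: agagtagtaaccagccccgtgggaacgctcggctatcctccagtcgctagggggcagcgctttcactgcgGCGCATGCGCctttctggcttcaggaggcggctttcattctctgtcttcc
Uqcr11: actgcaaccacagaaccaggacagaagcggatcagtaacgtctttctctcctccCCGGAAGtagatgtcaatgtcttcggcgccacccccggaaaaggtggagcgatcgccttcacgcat
Cox7a2l: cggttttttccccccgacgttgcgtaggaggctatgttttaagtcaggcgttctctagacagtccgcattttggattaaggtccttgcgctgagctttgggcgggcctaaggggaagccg
Sdha carries the NRF1 string 3 times, starting 98, 55 and 10 bases before the start. Sdhd carries it once and the ETS string once on the other strand, and, within the stretch shown, Atp5k carries the NRF1 string and Uqcr11 the ETS string. None of the 3 strings is in the Cox7a2l window. Members with a string and members without one moved in both directions. Ndufa6, which fell at 24 h in KO cells, holds the NRF1 string, and Uqcrh, which fell in the fit of 37 libraries, holds the ETS string. Atp5b, Cox5a, Cox5b, Cox7a2 and Cox7b, which rose, hold none of the 3. Of the members shown, Sdhd and Sdha rose, and Uqcr11, a small complex III subunit, had 0.86 ± 0.39 (SE, adjusted p = 0.053) from all libraries and 1.01 ± 0.13 (SE, adjusted p = 1.6e-08) from 37. Atp5k, a membrane subunit of the ATP synthase, had 0.72 ± 0.39 (SE, adjusted p = 0.11) and 0.93 ± 0.11 (SE, adjusted p = 2.6e-09) in the same order.

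In WT cells the same comparison turned on which libraries were used as the start. From all 50 libraries, 2 members rose and 25 fell at 2 h (beside 14% and 16.2% of all genes). At 6 h 9 rose and 13 fell (20.2% and 19.7%), at 12 h 18 rose and 7 fell (19.3% and 20.2%), and at 24 h 9 rose and 14 fell (19.9% and 24.2%). Without the 0 h library of WT mouse 3 alone, the counts became 3 up and 2 down at 2 h, 56 up and 1 down at 12 h and 31 up and 2 down at 24 h. Beside them stood 13.4% and 13.3% of all genes at 2 h, 20.8% and 19.7% at 12 h and 20.9% and 23% at 24 h. With mouse as a replicate block, which compares each animal with itself, the balance also moved: 10 rose and 8 fell at 6 h (beside 23.9% and 23.8% of all genes), 23 rose and 3 fell at 12 h (23.5% and 24.3%) and 12 rose and 10 fell at 24 h (28% and 27.1%). From 37 libraries the counts were 3 up and 17 down at 2 h, 59 up and 5 down at 6 h, 72 up and 2 down at 12 h and 65 up and 3 down at 24 h. Over all genes in that fit 24.1% rose and 25% fell at 2 h, so that the share of members that fell then was near that of all genes. At 6 h 33.2% rose and 33.6% fell, and 33.2% rose and 35.7% fell at 12 h, and 38% and 34.9% at 24 h. The median of the members at 24 h was -0.17 with all libraries, 0.03 with the block and 0.88 with 37.

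The 9 members called higher at 24 h in WT cells from all libraries, Ndufb6, Ndufs3, Sdhd, Uqcrfs1, Cox8a, Atp5a1, Atp5b, Atp5g3 and Atp5j, were also called higher from 37. From only the WT libraries at 0 and 24 h, no member was called higher and 2 of 78 were called lower. Beside them, 244 of 2705, 317 of 2996, 261 of 3082 and 217 of 3084 genes were higher in the quartiles of exon length, from shortest to longest. Those called lower were 308, 354, 369 and 385 in the same order. Sdhd had 206, 80.7, 85.0, 178 and 93.7 CPM in WT mice 1 to 5 at 0 h and 155, 239, 238, 255 and 265 CPM at 24 h. Mice 2, 3 and 5 were lowest at 0 h, mouse 4 was also higher at 24 h than at 0 h, and mouse 1 was lower. The log2 change was 0.84 ± 0.22 (SE, adjusted p = 0.002) from all libraries and 1.49 ± 0.15 (SE, adjusted p = 2.3e-10) from 37. Uqcrfs1 changed by 0.67 ± 0.16 (SE, adjusted p = 0.0011) and 1.33 ± 0.12 (SE, adjusted p = 2.5e-11), and Ndufb6 by 0.76 ± 0.25 (SE, adjusted p = 0.012) and 1.83 ± 0.15 (SE, adjusted p = 1.3e-12). Ndufa2 and Atp5e, an accessory subunit of complex I and the ε subunit of the ATP synthase, changed sign instead. Atp5e had 148, 109, 2885, 144 and 128 CPM at 0 h and 133, 170.4, 166, 177 and 173 CPM at 24 h. Mouse 3 alone was high at 0 h. The log2 change at 24 h was -2.06 ± 0.51 (SE, adjusted p = 0.0011) with that library and 0.31 without it. Ndufa2 likewise went from -2.01 to 0.19.

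The 0 h library of WT mouse 3 was high over most members and uneven among them. Its level was above the mean of WT mice 2 and 5 in 74 of 80 members, with a median log2 ratio (CPM + 1) of 2.07, while over 13286 genes with a length the median was -0.11. Complexes I, III, IV and V had medians of 2.19, 2.28, 1.85 and 1.84, and complex II had 0.33. Ndufa2 reached 1199 CPM and Atp5e 2885 CPM, against 46.7 to 78.4 CPM and 109 to 148 CPM in the other 4 WT libraries at 0 h. The 0 h library of KO mouse 3 showed the same kind of excess at a smaller size, above the mean of the other 4 KO mice in 72 of 80 members with a median log2 ratio of 0.53. The tested members have short exonic sequence, with a median of 1578 bases against 4320 over all tested genes, and 61 of 80 lie in the shortest quartile. In the library of WT mouse 3 the median log2 ratio fell with exon length, from 0.47 in the shortest quartile to -0.65 in the longest, and in that of KO mouse 3 from 0.17 to -0.35. The 92 tested genes of the ribosomal list had medians of 1.77 and 0.61. Most are cytosolic ribosomal protein genes, but the list also holds longer kinase genes, such as Rps6ka5 with 11932 bases of exon. The part of RNA quality or library preparation in these values was not tested.

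**Figure D4:**
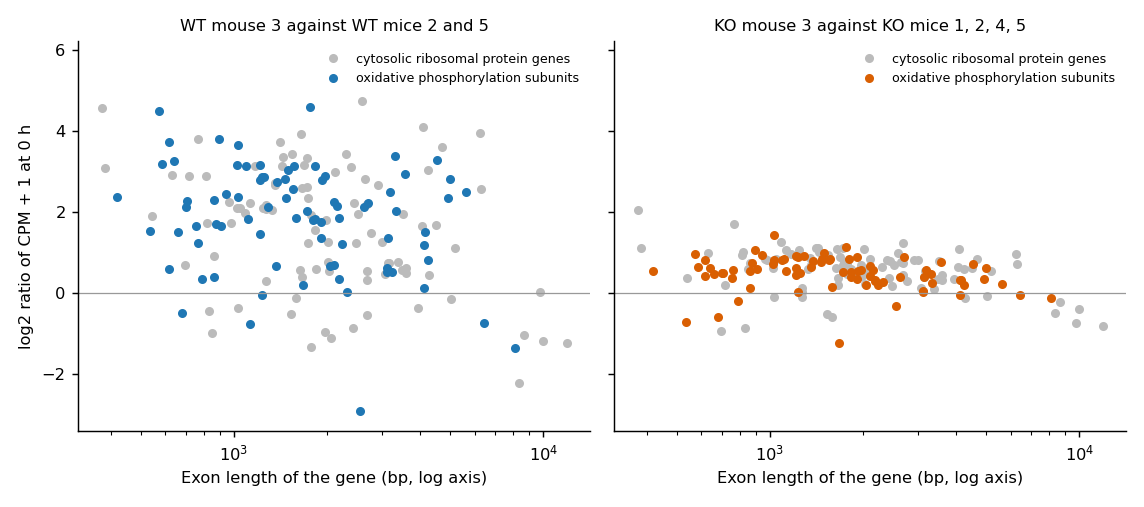
Log2 ratio of CPM + 1 at 0 h (vertical axis) of mouse 3 against other mice of its genotype, by exon length (bp, log axis), in WT (left) and KO (right). Coloured points are the 80 tested members and grey points are genes of the ribosomal list, some kinase genes among them. Members lie mostly above 0, with a median of 2.07 in WT mouse 3 and 0.53 in KO mouse 3.

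The comparison of genotypes at each time asks whether the deletion changed these levels. At 0 h, 15 of 80 members were lower in KO and none was higher, beside 5.59% and 2.34% of all genes, with a member median of -0.59. The lowest were Ndufa2, at -1.81 ± 0.48 (SE, adjusted p = 0.02), and Atp5e, at -1.80 ± 0.51 (SE, adjusted p = 0.025), and they turned to 0.42 and 0.60 without the 0 h library of WT mouse 3. Leaving out that library took the count to 3 higher and 1 lower, beside 3.6% and 8.47% of all genes. In the fit of 37 libraries, with 2 WT and 4 KO mice, 26 members were higher in KO and none was lower at 0 h, beside 8.97% and 9.37% of all genes, and the median was 0.32. The direction at 0 h thus depended on the libraries used. At 2 h, 9 members were lower and none higher in KO (8.9% and 2.9% of all genes), and 1 was lower and 2 were higher from 37 libraries (5.39% and 3.11%), which for those higher is near the share of all genes. Sdha was lower in both: WT mice 1 to 5 had 405, 243, 244, 351 and 233 CPM at 2 h and KO mice 207, 209, 203, 197 and 196 CPM, with no overlap. The log2 difference was -0.54 ± 0.11 (SE, adjusted p = 0.0043) from all libraries and -0.25 ± 0.06 (SE, adjusted p = 0.0072) from 37.

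At 6 and 12 h the members leaned lower in KO. All 5 KO libraries lay below all 5 WT libraries in 23 of 80 members at 6 h and in 27 at 12 h, beside 5.51% and 11.4% of all genes, whereas at 0, 2 and 24 h this held for 1 member each (1.56%, 2.58% and 2.96% of all genes). The reverse, all KO above all WT, held for no member at 0, 2 and 6 h (1.54%, 3.5% and 5.5% of all genes). It held for Uqcrc1 and Atp5d at 12 h (13% of all genes) and for Atp5b at 24 h (2.95%). The member medians were -0.36 at 6 h and -0.38 at 12 h, and those of all genes -0.04 and -0.10. The fit over 50 libraries, which shares 1 estimate of the spread among all groups, called 4 members lower and none higher at 6 h (beside 7.59% and 2.53% of all genes) and 2 lower and none higher at 12 h (7.55% and 5.54%). Those at 6 h were Ndufb3, Ndufb11, Atp5s and Cox6b2, and those at 12 h Atp5s, a coupling factor of the ATP synthase, and Cox6b2. From only the 10 libraries at 12 h, 38 of 78 were lower and 2 were higher, beside 15.7% and 14.1% of all genes, but the 10 libraries at 6 h gave no call in edgeR's test (0.135% lower and 0.304% higher over all genes), with 52 of 78 at an unadjusted p under 0.05. Beside these 52, 796 of 2761, 971 of 2965, 1070 of 3034 and 1004 of 3066 genes passed that cut in the quartiles of exon length, from shortest to longest. From 37 libraries, 28 were lower and none higher at 6 h (12.7% and 9.77%), and 59 were lower and 4 higher at 12 h (22.3% and 23.2%).

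**Figure D5:**
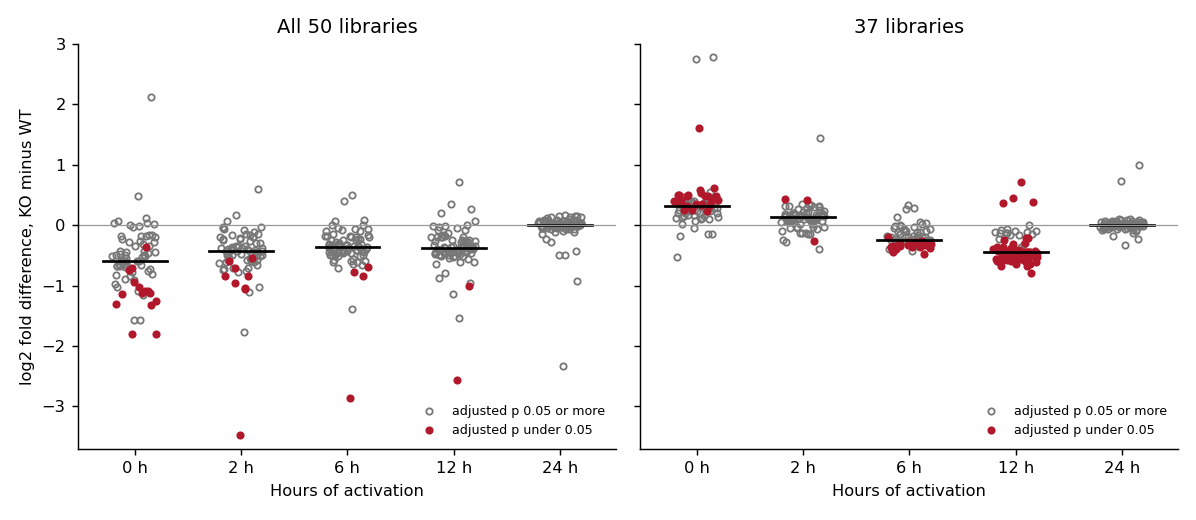
Log2 difference, KO minus WT (vertical axis), of each tested member at 0, 2, 6, 12 and 24 h from all 50 libraries (left) and from 37 (right). Filled points passed an adjusted p of 0.05, open points did not, and black bars are medians. At 0 h the median is -0.59 on the left and 0.32 on the right, at 12 h it is -0.38 and -0.45, and at 24 h it is 0.01 in both.

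At 12 h Cox4i1, the common form of subunit 4 of complex IV, had 415, 408, 388, 446 and 463 CPM in WT mice 1 to 5 and 332, 300.2, 325, 326 and 293 CPM in KO mice 1 to 5. The groups did not overlap, and the log2 difference was -0.43 ± 0.26 (SE, adjusted p = 0.28) from all libraries and -0.37 ± 0.07 (SE, adjusted p = 7.9e-05) from 37. Ndufv3 had 84.7, 65.5, 56.4, 87.3 and 75.4 CPM in WT and 44.2, 46.5, 44.1, 43.4 and 36.3 CPM in KO, again without overlap, with -0.78 ± 0.31 (SE, adjusted p = 0.078) and -0.58 ± 0.10 (SE, adjusted p = 3.2e-05). Atp5s was lower in both fits, -1.002 ± 0.25 (SE, adjusted p = 0.0099) and -0.78 ± 0.18 (SE, adjusted p = 0.00055). Cox6b2 was high in WT mice 1 and 4, which had 18.1 and 12.2 CPM at 12 h, and at 1.47 to 2.38 CPM in the other 3 WT mice, beside 0.660 to 1.94 CPM in KO mice. Its log2 difference went from -2.56 ± 0.81 (SE, adjusted p = 0.033) to -0.54 ± 0.29 (SE, adjusted p = 0.12). By complex, 32 of 36 members of complex I, 2 of 4 of complex II, 5 of 8 of complex III, 9 of 15 of complex IV and 11 of 17 of complex V were lower in KO at 12 h from 37 libraries. Over all genes in that fit 22.3% were lower and 23.2% higher. Other short transcripts leaned the same way: the median log2 difference of all genes at 12 h went from -0.20 in the shortest quartile of exon length to -0.01 in the longest with all libraries, and from -0.12 to 0.14 with 37. Of the 92 tested genes of the ribosomal list, which holds some longer kinase genes, 67 were lower and 4 higher from 37 libraries, beside the same 22.3% and 23.2%. The part of transcript length in the member result was not tested.

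Atp5d, the δ subunit in the central stalk of the ATP synthase, and the complex III core gene Uqcrc1 went against the other members at 12 h. Atp5d had 167, 189.7, 257, 232 and 194 CPM in WT and 347, 323, 363, 356 and 319.9 CPM in KO mice 1 to 5, and every KO value lay above every WT value. The log2 difference was 0.72 ± 0.30 (SE, adjusted p = 0.11) from all libraries, which missed the threshold, and 0.72 ± 0.13 (SE, adjusted p = 5.4e-05) from 37. Uqcrc1 had 242, 216, 296, 288 and 203 CPM in WT and 302, 322, 322, 333 and 305 CPM in KO, with 0.35 ± 0.19 (SE, adjusted p = 0.22) and 0.45 ± 0.15 (SE, adjusted p = 0.014). The other members called higher in KO at 12 h from 37 libraries were Uqcrfs1 (0.39 ± 0.10) and Sdhc (0.37 ± 0.10, SE). At 24 h Atp5d stood at 255, 347, 326, 301 and 319 CPM in WT and 360.5, 355, 348, 353 and 324 CPM in KO, and the groups overlapped. No member differed between genotypes at 24 h at an adjusted p under 0.05 in edgeR's test (0.0376% of all genes were lower and 0.00752% higher), 1 did at an unadjusted p under 0.05, and DESeq2 called none. Without the filter on low counts 1 of 82 members passed that unadjusted cut. Beside it, 235 of 3322, 213 of 3323, 218 of 3321 and 242 of 3320 genes passed in the quartiles of exon length. The member median was 0.01 with all libraries and with 37.

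Whether the change over time differed between genotypes was tested as the KO change minus the WT change. No member was called at 2 h or at 24 h in edgeR's test (above 0 in 0.015% and 0.015% of all genes, below 0 in 0% and 0.0602%). At these times 3 and 24 members had an unadjusted p under 0.05, and DESeq2 called none at either time. Without the filter on low counts, 3 and 22 of 82 members passed that unadjusted cut. Beside them, 186 of 3322, 201 of 3323, 197 of 3321 and 173 of 3320 genes passed at 2 h in the quartiles of exon length. At 24 h 443, 471, 422 and 326 genes did, in the same order. At 6 h the difference was above 0 for Uqcrc1, 1.11 ± 0.27 (SE, adjusted p = 0.022), and for Atp5d, 1.52 ± 0.43 (SE, adjusted p = 0.044), beside 2.09% of all genes. At 12 h it was 1.74 ± 0.43 (SE, adjusted p = 0.0081) for Atp5d and 1.05 ± 0.27 (SE, adjusted p = 0.011) for Uqcrc1, beside 5.54% of all genes. For Cox7c, a small complex IV subunit with sequence shared between gene copies, it was -0.91 ± 0.23 (SE, adjusted p = 0.0087), beside 1.96% below 0. The 0 h level of Atp5d that enters these values was 1078 CPM in WT mouse 3 and 144 to 230.1 CPM in the other WT mice. Without the 0 h library of WT mouse 3 the Atp5d difference at 6 h was 0.54 and was not called, and both calls at 6 h were lost without some single mice. From 37 libraries Uqcrc1 had 0.31 at 6 h and 0.49 at 12 h, neither past the threshold. In the same fit the difference at 12 h was below 0 in 64 members and above 0 in 1, Atp5d, at 0.62 ± 0.20 (SE, adjusted p = 0.014), beside 16.3% and 19.2% of all genes. At 6 h it was 55 and 0, beside 9.92% and 10.8%. There the WT change rests on 2 libraries at 0 h.

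Genes that build or regulate the complexes were read from lists chosen by function. Of 47 tested assembly factors, 25 rose and 6 fell at 24 h in KO cells, with a median log2 change of 0.38, beside the 30.7% and 28% of all genes given above. Tmem70, needed for ATP synthase assembly, changed by 1.28 ± 0.16 (SE, adjusted p = 2.5e-08), Acad9, a complex I assembly factor, by 0.99 ± 0.14 (SE, adjusted p = 2.7e-07), and Cox10, which makes the haem of complex IV, by 1.23 ± 0.18 (SE, adjusted p = 3.1e-07). Surf1, a complex IV assembly factor, fell by 1.10 on the log2 scale (adjusted p = 2.9e-07), and so did Cox20, by 1.96 (adjusted p = 0.0018). At 2 h, 23 of the 47 had fallen and 2 had risen, beside 19.6% and 20.3% of all genes. Of 21 tested regulators and genes of mitochondrial DNA expression, 13 rose and 1, Polg2, fell at 24 h. The transcription factor Nrf1 changed by 0.69 ± 0.14 (SE, adjusted p = 4.1e-05), Gabpb1, a subunit of GABP, by 0.94 ± 0.18 (SE, adjusted p = 2.4e-05), and Lrpprc, which stabilises mitochondrial mRNA, by 1.17 ± 0.22 (SE, adjusted p = 1.9e-05). Myc and the coactivator Pprc1 changed by 2.06 ± 0.39 (SE, adjusted p = 2.5e-05) and 1.47 ± 0.29 (SE, adjusted p = 3.3e-05). At 12 h both were higher in KO than in WT, by 1.12 ± 0.38 (SE, adjusted p = 0.046) and 1.03 ± 0.28 (SE, adjusted p = 0.016), and from 37 libraries by 0.90 ± 0.20 (SE, adjusted p = 0.00043) and 0.78 ± 0.13 (SE, adjusted p = 2.1e-05). A list of 9 tested carriers, further subunits and related factors includes Atp5mpl, counted above as well. Of these, Cyc1, Higd1a and Ndufab1 rose and the related factors Dmac2 and Higd2a fell at 24 h. Cyc1, the haem-bearing subunit of complex III that the naming rule leaves out, changed by 1.10 ± 0.18 (SE, adjusted p = 2.3e-06).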

How the data were processed

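Poly(A) RNA of 50 libraries was sequenced with a strand-marking kit as single-end reads of 50 bases, per the labels' protocols. The authors deposited raw counts per Ensembl gene; CASAVA 1.8.2, featureCounts 1.4.6, STAR 2.4 and GRCm38 are listed in the submitters' processing notes without their roles, while the annotation release, the strand setting and the treatment of multi-mapped reads are not given in the sources used here. Symbols and exon lengths came from GENCODE on the same build, and 64 identifiers had no symbol.

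Counts were analysed with edgeR 4.0.16 in R 4.3.3 (quasi-likelihood test with robust fitting, TMM scaling, filterByExpr with a minimum count of 10 and a minimum total of 15, 1 mean for each of 10 groups, Benjamini-Hochberg adjustment over 13294 genes, threshold 0.05). Levels are CPM, counts divided by the TMM-scaled library size. The totals of 9571625 to 31293872 counts set the counting precision. The p-values and SE rest on the spread between mice within groups, 5 per group in the fit of all libraries. That spread is pooled over the 10 groups, so values for KO also carry the spread of the WT libraries. For KO at 24 h against 0 h the median SE of the members was 0.13 from only the groups compared. It was 0.26 from all libraries in the fit without a filter. Only the fit with mouse as a replicate block uses the pairing of times. Alternatives were library totals, DESeq2 1.42.0, no filter, only the groups compared, mouse as a replicate block, and leaving out mice or libraries. The 37-library fit was added after seeing the data.

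The members, the lists of carriers, assembly factors, regulators and ribosomal genes, and the marker lists were chosen with earlier results of these data known. Members were named by level per kb, by the smallest p in each comparison, as isoforms or as complex II, and list genes by the smallest p. Ndufs7, Ndufs8, Ndufv1, Ndufv2, Ndufa12, Ndufc2, Uqcr10, Uqcr11, Cox5a, Cox5b and Atp5k fall outside that rule and were chosen after their values were seen. Mouse numbers mark the same animal within a genotype: the mean correlation between times of the deviations of 1 mouse was 0.221 to 0.799 in WT and 0.095 to 0.475 in KO. The scripts were tested on simulated data. The check of the targeted gene is not reported here.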

Additional observations from a re-analysis of the deposited data

Results flagged for a closer look

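Single libraries far from the other 4 of their group were looked for in 180 groups of 5 (Dixon's gap at the 95% level), and 22 were found. Of the groups, 60 were of sums, which overlap each other and the single genes. Some genes, among them Ndufa2, Atp5e and Atp5d, were already named for their test results, so the 22 cannot be set against a chance rate. Of the 22, 9 were the 0 h library of WT mouse 3. Its summed level was 29077 CPM over all members, 10119 CPM over complex I, 2975 CPM over complex III and 4716 CPM over complex IV. The single genes were Uqcrq at 417.5 CPM, Cox7a2l at 853.5 CPM, Ndufa2 at 1199 CPM, Atp5e at 2885 CPM and Atp5d at 1078 CPM. The 0 h library of KO mouse 3 was also high, at 3522 CPM over complex I, 1965 CPM over complex IV, 136.8 CPM for Ndufa2 and 346.3 CPM for Atp5e.

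WT mouse 1 was low at 24 h, at 10964 CPM over all members, 769 CPM over complex II, 4679 CPM over complex V, 1552 CPM for Atp5b, 155.3 CPM for Sdhd and 132.7 CPM for Atp5e. KO mouse 5 was low at 12 h, at 770.0 CPM over complex II, 325.5 CPM for Sdha and 159.0 CPM for Atp5e.

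The KO change minus the WT change passed the threshold in edgeR's test for Uqcrc1 (1.107 at 6 h and 1.051 at 12 h, log2), Atp5d (1.521 and 1.744) and Cox7c (-0.909 at 12 h). From 37 libraries Atp5d alone of the 3 was called above 0, at 12 h.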

How the results depend on the processing

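Counts of members called, of 80 tested and with higher and lower summed, moved with the libraries used, and the cause was not tested. The shares over all genes moved as well. Between genotypes at 12 h, 7.55% of all genes were lower and 5.54% higher from all libraries. From 37 libraries these shares were 22.3% and 23.2%, and from only the groups compared 15.7% and 14.1%. The counts below stand without such shares, so they describe the settings and cannot be read as a result about the members. Leaving out 1 mouse at a time gave 4 to 42 at 2 h, 16 to 35 at 6 h, 14 to 55 at 12 h and 20 to 36 at 24 h in WT (all libraries 27, 22, 25 and 23). It gave 8 to 28, 10 to 26, 19 to 43 and 27 to 58 in KO (16, 14, 27 and 36). Between genotypes it gave 0 to 46, 1 to 23, 0 to 27 and 1 to 21 at 0, 2, 6 and 12 h (15, 9, 4 and 2), and 0 throughout at 24 h. For the KO change minus the WT change it gave 0 to 13 at 6 h and 2 to 15 at 12 h (2 and 3), and 0 at 2 and 24 h. From 37 libraries the counts were 64, 74 and 68 in WT at 6, 12 and 24 h, 48, 51, 67 and 71 in KO at 2, 6, 12 and 24 h, 26, 3, 28 and 63 between genotypes at 0, 2, 6 and 12 h, and 55, 65 and 2 for the difference in change at 6, 12 and 24 h. Without WT mice 1 and 4 they were 59, 41 and 44 in WT at 2, 6 and 24 h, 29 and 22 in KO at 2 and 6 h, 35, 1, 1 and 13 between genotypes at 0, 2, 6 and 12 h, and 4 and 11 for the difference in change at 6 and 12 h. Without the 0 h library of WT mouse 3 they were 5 and 57 in WT at 2 and 12 h, 37 and 26 in KO at 2 and 6 h, 4, 24, 13 and 16 between genotypes at 0, 2, 6 and 12 h, and 10 and 15 for the difference in change. With only the libraries of the groups compared they were 0, 0, 1 and 2 in WT, 33, 36 and 45 in KO at 2, 6 and 12 h, 0, 0, 0 and 40 between genotypes, and 0 for the difference in change at 6 and 12 h. Library totals gave 32 in KO at 2 h, 1, 18 and 7 between genotypes at 0, 2 and 12 h, and 0 for the difference in change at 6 h. Without a filter the counts were 8 and 2 between genotypes at 0 and 6 h and 1 for the difference in change at 6 h, and DESeq2 gave 7 between genotypes at 6 h.

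Only Ndufa2 and Atp5e reversed among the named members. At 24 h against 0 h in WT they were 0.19 and 0.31 (log2) without the 0 h library of WT mouse 3, 0.43 and 0.51 from 37 libraries, and 0.18 and 0.29 without WT mouse 3. Between genotypes at 0 h they were 0.42 and 0.60, 0.39 and 0.41, and 0.40 and 0.57. Leaving out other single mice took them to as low as -2.30 and -2.36 in WT and -2.11 and -2.13 between genotypes. With mouse as a replicate block, which pairs the times of an animal, 33 members rose and 7 fell at 24 h in KO, and 12 rose and 10 fell in WT, where without the block 9 rose and 14 fell. No sum of higher and lower moved by over 1.5 times under the block, but the members called lower in WT numbered 8 at 6 h and 3 at 12 h with it, and 13 and 7 without. Of the named members Atp5e alone lost its call, at -1.07 in WT at 24 h. Genotypes share no animal, so the block cannot enter that comparison. Low depth limits isoforms near 1 CPM, such as Cox4i2 and Cox7a1.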
